A study of Arabidopsis thaliana with 6 samples.

Results

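The progressively cold-repressed genes of Arabidopsis seedlings were those whose transcripts were lower after 3 h at 4 °C and lower again after 24 h, in the wild type and in the lcbk1-2 mutant alike. There were 74 of them among 13355 genes with a probe set annotated to 1 gene. They were chosen by measured values: the log2 signal had to be at least 0.58 lower at 3 h than at 0 h and at least 1 lower at 24 h than at 3 h, in each genotype. Signals under 66 were set to 66 first, a floor close to the 35th percentile of all signals, and the brightest probe set stood for a gene with several. The same steps were met by 87 genes in all. Of these, 13 were left out by name: the autophagy genes ATG8E and ATG8F, the glycosyltransferase UGT72E1, the expansin EXPA8, the auxin response gene WES1, the leucine breakdown gene MCCA, AKINBETA1, ATL8, AT5G63190, AT5G19120, AT4G27450, AT3G15450 and AT2G20670. The cold changes of the 74 genes are therefore a description and were not tested.

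Whole seedlings of Columbia-0 aged 2 weeks, wild type or carrying the lcbk1-2 knock-out, grew on plates holding 2% sucrose, with light for 16 h and dark for 8 h a day. Samples came from 22 °C (0 h) and from 4 °C, where seedlings had stayed for either 3 h or 24 h. The LCBK1 gene encodes a kinase of long-chain bases, the backbones of sphingolipids. There was 1 ATH1 array for each genotype and time, 6 in all, so no condition had replicates, and this small number of arrays sets the precision. The labels give no number of plants behind an array, and seedlings kept at 22 °C to 3 h or 24 h are not among the samples, so the effect of cold cannot be told apart from that of time of day or plant age. In whole seedlings, fewer cells of a type and less RNA per cell cannot be told apart either.

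Arabidopsis acclimates to cold. Within hours of chilling it induces a first wave of transcription factors and then a set of protective COR genes, and over the same period it slows growth and lowers the transcripts of many genes used for wall loosening, hormone responses and housekeeping. The level of a transcript is the balance of its synthesis and its decay, and an array does not separate them.

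Median signals ran from 144 to 171 over the 6 arrays, with 63.6% to 66.1% of probe sets brighter than the floor. The hybridization controls, bacterial transcripts added before hybridization, were bright on the wild-type 0 h array, at 2.25 times the median of the others, and stood at 0.984 times it on the lcbk1-2 0 h array. The steps were met by 144 genes when the wild type alone was read, by 160 in lcbk1-2 alone, which does not use that array, and by 87 in both. Of the leaf markers 2 were tested, and both were bright on every array: RCA, the activase of Rubisco, lay between 24499.9 and 32749.5 and the light-harvesting gene LHCB4.2 between 13054 and 29747. LHCB4.2 fell by 1.00 on the log2 scale from 0 h to 24 h (limma adjusted p = 0.00239), and RCA (-0.02) did not pass. The root marker PYK10, a beta-glucosidase, lay between 16738 and 22106, so shoot and root were both represented. The root expansin genes EXPA7 and EXPA18 fell by 0.54 and 0.49 on the log2 scale over the day (limma adjusted p = 0.0480 and 0.0457), but with every other floor or scaling at most 1 of the root markers passed. Of 2 guard cell genes 0 passed at 24 h, and AT1G22690 fell by 0.54 at 3 h (limma adjusted p = 0.0484), and did not pass without the floor or when it was set lower, at the 20th percentile. Between genotypes, both guard cell genes read higher in lcbk1-2 at each time. Their limma estimates for lcbk1-2 minus wild type were 0.58 for FMA and 0.47 for AT1G22690. Neither passed (limma adjusted p = 0.383 and 0.422), but both were larger in size than any such estimate in the chosen group, given below. The leaf and root markers had estimates from -0.18 to 0.06. The part of shifts in cell makeup in the results, the genotype comparison included, was not tested. None of the reproductive or senescence markers was on a probe set annotated to 1 gene.

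The 74 genes were read at a median signal of 1117 at 0 h, 558 at 3 h and 151 at 24 h on the wild-type arrays. In lcbk1-2 the medians were 1215, 496 and 158. All 74 had both 0 h arrays above both 3 h arrays and both 3 h arrays above both 24 h arrays, an order that the steps nearly fix and that 15.6% of the 15653 tested features showed. Tested features are those above the floor on at least 2 arrays. The median log2 change was -1.02 from 0 h to 3 h, -1.56 from 3 h to 24 h and -2.68 over the whole day, beside medians of -0.03, -0.08 and -0.11 over all tested features. As folds, the genes were a median 2.03 times lower at 3 h than at 0 h, and a median 6.41 times lower at 24 h with values under the floor set to it, ranging from 3.22 to at least 25.7 times. A fall of at least 8-fold in both genotypes was reached by 22 of the 74, beside 0.562% of all tested features, and a fall of at least 16-fold by 3, beside 0.172%. At 24 h 18 of the 74 (24.3%) lay under the floor in at least 1 genotype, beside 11.3% of all tested features. In 8 of the 18 this held in both genotypes. The folds of the 18 are lower bounds and are given as "at least".

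**Figure D1:**
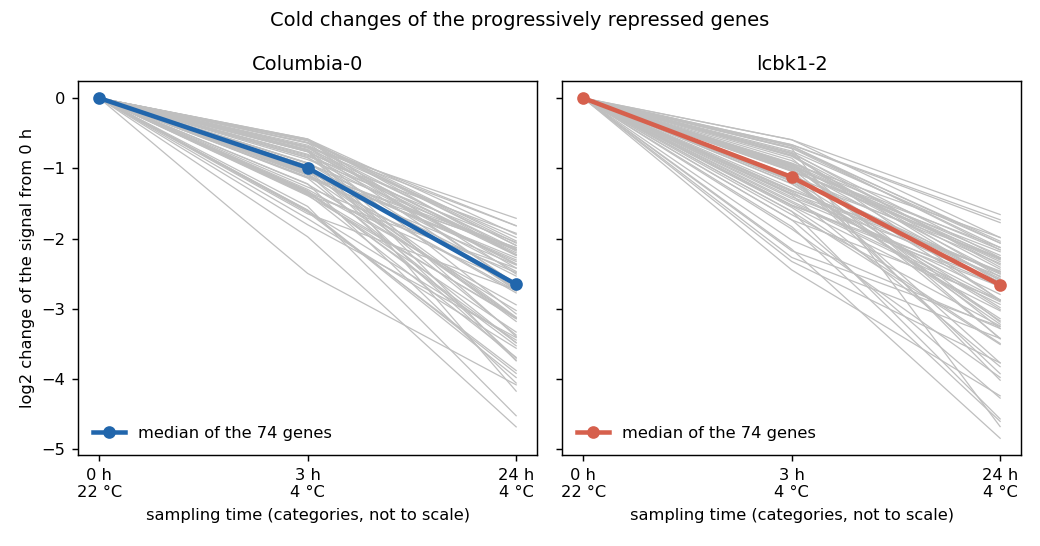
Log2 change of the signal from 0 h for each of the 74 genes (grey lines, 1 array per point) and their median (coloured line), in Columbia-0 on the left and lcbk1-2 on the right, against sampling time as categories. The medians reach -0.99 and -1.12 at 3 h and -2.65 and -2.66 at 24 h.

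Most of the 74 genes have no name beyond their locus. A symbol is given to 10 of them, and 86.5% carry the locus code alone, beside 85.9% of all tested genes on single-gene probe sets. They lie on all 5 nuclear chromosomes, with 18 on chromosome 1, 12 on chromosome 2, 17 on chromosome 3, 10 on chromosome 4 and 17 on chromosome 5. No pair of them lay within 5 places of each other in the order of protein-coding genes. Signals below are given in the order 0 h, 3 h and 24 h. The roles are background knowledge of the products, and the genes were grouped by them with their values known.

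Transcription and its control were represented by 5 genes, with mean log2 changes over the day from -4.68 to -2.05. BZIP61, a basic leucine zipper transcription factor, had the deepest fall of the 74. Its signal was 1742, 598 and 75.8 in the wild type at 0 h, 3 h and 24 h, and 1895, 427 and 41.2 in lcbk1-2, the last value being under the floor. Over the day it was at least 25.7-fold lower. AT2G34620, a member of the mTERF family of regulators of organelle gene expression, had the deepest fall of the genes that stayed above the floor, and the latest. The wild-type arrays read 2431, 1448 and 135, and those of lcbk1-2 3069, 1866 and 120.0, so that most of its fall came after 3 h, and at 24 h it was 21.5-fold below its starting level. AT5G61590, the DEWAX factor that represses wax synthesis genes, read 2989, 1199 and 259 on the wild-type arrays and 3004, 739 and 309 on those of lcbk1-2, with the lower 3 h value in the mutant. The Mediator subunit gene MED6 was a dim member, at 319, 153 and 36.6 (wild type) and 289, 176 and 65.3 (lcbk1-2), and lay under the floor at 24 h in both genotypes. AT2G31730, of the basic helix-loop-helix family, read lower in lcbk1-2 at each time, with values given under the genotypes.

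The genes of protein turnover, 4 in number, were F-box and RING-type proteins, which choose targets for ubiquitin ligases. AT1G23390 is a Kelch-repeat F-box protein that targets chalcone synthase, the entry enzyme of flavonoid synthesis. It was bright at 22 °C, with wild-type values of 5018, 2152 and 301 and lcbk1-2 values of 6158, 2013 and 259.6, a fall of 19.9-fold with all 24 h values far from the floor. AT4G17245, a RING-type protein, changed by -2.91. AT1G30200 and AT1G22040, both F-box proteins, changed by -2.19 and by at least 2.11 downward on the log2 scale, the latter dim throughout, with 0 h signals of 283 and 288.

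Signalling was represented by 4 genes. The protein kinase AT4G01330 read 1419, 469 and 90.0 in the wild type and 1604, 451 and 28.1 in lcbk1-2, a fall of at least 19.6-fold. AT3G44610, a kinase of the AGC family, and AT3G01490, a kinase related to the Raf type, were at least 7.84-fold and 4.01-fold lower. AT3G19850, a protein of the NPH3 family known from blue-light signalling, changed by -3.03, with 0 h, 3 h and 24 h signals of 602, 229.7 and 69.1 (wild type) and 646, 230.1 and 84.4 (lcbk1-2). The leucine-rich repeat proteins DRT100 and AT1G15740 had falls of 6.28-fold and 6.13-fold.

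Among the genes of the cell wall and its proteins, 7 in number, the fall had a median of -2.40 on the log2 scale and ran from -3.86 to -2.01. The deepest was the glycine-rich protein AT2G05540, at 6258, 3199 and 480.4 in the wild type and 6927, 3419.9 and 428 in lcbk1-2. Pectin, the gel of the primary wall, was the substrate of several members. AT5G48900, a pectate lyase, was 5.26-fold lower at 24 h. ATPMEPCRD and AT3G10720, both pectin methylesterases, were 6.24-fold and 4.03-fold lower, and AT4G25260, an inhibitor of such esterases, was 5.66-fold lower. So enzymes that cut or trim pectin and an inhibitor of them were in the same group. TBL25, of a family that adds acetyl groups to wall polysaccharides, was 4.54-fold lower. AT5G65660, a hydroxyproline-rich glycoprotein and the brightest of the 7, read 7788, 4597 and 1666 (wild type) and 7747, 4388 and 1493 (lcbk1-2), with the genotypes close at every time. The sugar-transferring enzymes AT3G52060, named as related to beta-1,6-N-acetylglucosaminyl transferases, and AT2G44500, of the O-fucosyltransferase family, changed by -3.58 and -2.12. For AT3G52060 the arrays read 4317, 2054 and 325 in the wild type and 4154, 2077 and 388 in lcbk1-2.

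Lipid handling was represented by 4 genes. SDP1, the triacylglycerol lipase that starts the breakdown of stored oil, read 817, 445 and 197 in the wild type and 851, 413 and 187 in lcbk1-2, a fall of 4.35-fold with the genotypes side by side at each time. AT5G18630, a class 3 lipase, was deeper, at 8.94-fold. AT4G19860, related to lecithin:cholesterol acyltransferases, was 4.75-fold lower. AT3G23080, a START-like lipid-binding protein, read 1115, 737 and 196 (wild type) and 1259.8, 696 and 117 (lcbk1-2), and its 24 h value was lower in lcbk1-2.

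Phosphatases gave 3 members. AT1G25230, a purple acid phosphatase, read 2778, 919.6 and 184 in the wild type and 3051, 838 and 194 in lcbk1-2, a fall of 15.4-fold. AT5G44020, of the acid phosphatase family, was the brightest of the 74, at 17007, 9763 and 3593 (wild type) and 13810.5, 7165 and 2446 (lcbk1-2), and was lower in lcbk1-2 at each time. AT4G14930, a SurE-like phosphatase, read 1112, 617 and 215 (wild type) and 1204, 624 and 124 (lcbk1-2).

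Other members with a known product were scattered. AT5G14120, a transporter of the major facilitator superfamily, read 9132, 4677 and 1050.5 in the wild type and 9288, 3037 and 816 in lcbk1-2. AT1G56220, related to dormancy-associated proteins, was 11.1-fold lower at 24 h, and SIS, named for induction by salt and for its serine content, 11.8-fold, with wild-type values of 1383, 448 and 94.0 and lcbk1-2 values of 1226, 388 and 129. The aspartyl protease AT1G09750 read 7884, 3833 and 1596 (wild type) and 7728, 3784 and 1595 (lcbk1-2), nearly equal in the genotypes. Of the cytoskeleton, the microtubule-associated SP1L3 was 4.15-fold lower, and ATZW10, related to a kinetochore protein of animals, 4.46-fold.

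For 37 members no role is given here. Their mean changes over the day ran from -4.05 to -1.69 with a median of -2.72, close to the -2.68 of all 74. Among the deepest, AT5G62280 read 2623, 667 and 102 in the wild type and 2694, 559 and 251 in lcbk1-2. AT5G50335 read 1118, 198 and 31.8 (wild type) and 1055, 210.5 and 77.4 (lcbk1-2), under the floor at 24 h in the wild type. AT2G25200 began higher in lcbk1-2, at 1247, 229 and 62.0 against 791, 241 and 67.0 in the wild type.

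The genotypes were alike at 3 h for that gene although they had begun apart. AT5G56100 read 2522, 1144 and 225 (wild type) and 3014, 907 and 156 (lcbk1-2), and AT5G03230 883, 530.0 and 59.3 (wild type) and 1081, 496 and 71.2 (lcbk1-2). AT4G19160 read 1811, 701 and 140.2 (wild type) and 1817, 698 and 128 (lcbk1-2), and AT1G80180 1724, 885 and 166 (wild type) and 2255, 1038 and 165 (lcbk1-2). AT2G46220 was among the brightest, at 7471, 3934 and 1145 (wild type) and 7663, 4133 and 1416 (lcbk1-2). All of them had 3 h values between those of 0 h and 24 h, as the choice of genes required. The others without a role were AT5G12050, P1R1, AT4G33960, AT3G49790, AT1G67910, AT5G42680, AT3G18050, AT2G38820, AT5G59080, AT4G12690, AT1G52720, AT2G37480, AT4G39675, AT3G15770, AT1G34630, AT3G15630, AT1G54740, AT5G18850, AT1G21830, AT3G26760, AT2G04690, AT4G01410, AT3G52480, AT2G42900, AT1G22890, AT3G62010, AT1G44770, AT1G66900 and AT1G61900.

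**Figure D2:**
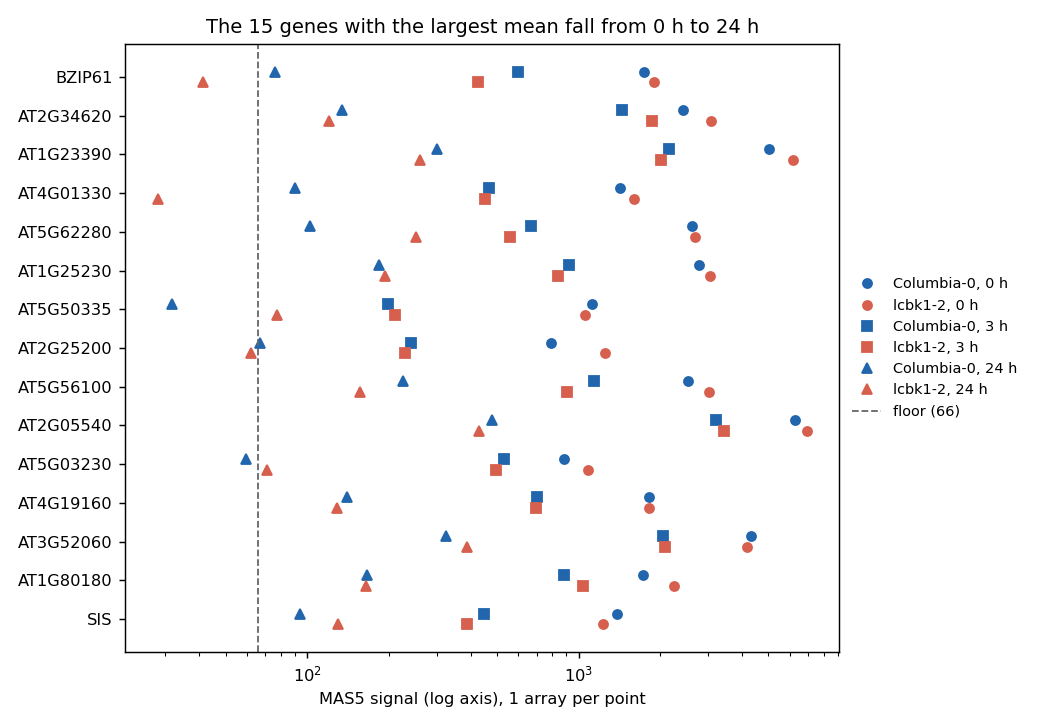
MAS5 signal on a log axis for the 15 genes with the largest mean fall once signals under 66 are set to 66, 1 point per array, circles for 0 h, squares for 3 h and triangles for 24 h, with Columbia-0 in blue and lcbk1-2 in red. The dashed line is the floor of 66, and within each gene the 3 times do not overlap.

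Members differed in when the fall took place. On the log2 scale the share of the day's fall that was already present at 3 h had a median of 38.6% and ran from 16.6% to 61.4%. It was under 50% in 67 genes and over 50% in 7, and under 25% in 3. The choice of genes asked for a fall of 0.58 at the first step and of 1 at the second. It thus favoured shares under 50%, and a share over 50% needed a mean first step beyond 1 in size. The split is therefore a description. Of the 7, AT5G50335, AT2G25200 and AT1G34630 were under the floor at 24 h in at least 1 genotype, so their shares are upper bounds. The late end held AT2G34620 (16.6%), AT5G03230 (24.3%) and the START-like AT3G23080 (24.5%). The early end, among genes above the floor, held AT5G12050 at 59.7% and AT1G21830 at 57.7%. AT5G12050 read 5593, 1602 and 526 in the wild type and 6275, 1390.2 and 657 in lcbk1-2, so most of its fall came in the first 3 h.

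**Figure D3:**
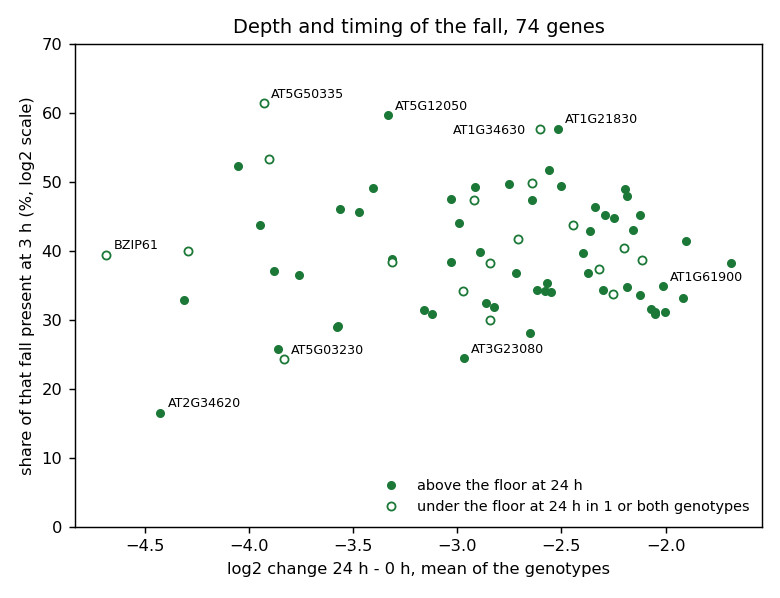
Share of the fall from 0 h to 24 h that was present at 3 h (in percent, on the log2 scale) against the log2 change from 0 h to 24 h, each the mean of the genotypes, 1 point per gene. Open points were under the floor at 24 h in 1 or both genotypes, so their share is an upper bound; the shares run from 16.6% to 61.4%.

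The boundaries of the group were not gaps. At the first step the members nearest the threshold were AT3G01490, SP1L3 and AT1G61900, whose smaller change of the 2 genotypes was -0.582, -0.584 and -0.594. Just outside it were AT5G66490, AT1G66940 and the beta-glucosidase gene BGLU16, at -0.578, -0.577 and -0.577. At the second step AT1G22890, AT1G61900 and AT1G21830 were just inside, at -1.01, -1.02 and -1.04. AT1G03610, AT2G42040 and ALN, the allantoinase of purine breakdown, were just outside, at -0.984, -0.981 and -0.974. The steps were met by 1.67% of the 5196 genes that were bright enough at 0 h to meet them. Among probe sets without a gene name the share was 1.77%, 84 of 4737, with a median change over the day of -3.05. The named group is thus a part of those that behaved this way.

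**Figure D4:**
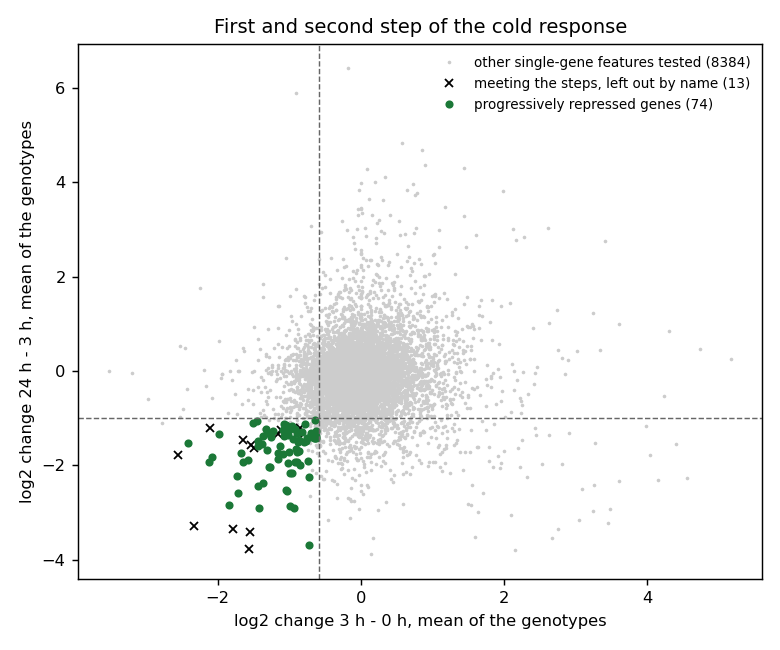
Log2 change from 3 h to 24 h against that from 0 h to 3 h, each the mean of the genotypes, for all 8471 tested genes on single-gene probe sets. Green points are the 74 genes, crosses the 13 left out by name, and dashed lines the thresholds of -0.58 and -1, which had to be met in each genotype.

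A second probe set existed for 2 of the 74 genes, read by other probes on the same arrays and not used in the choice. That of AT2G37480 changed by -1.31 and -1.18 in the wild type and lcbk1-2 from 0 h to 3 h, and by -3.20 and -2.84 over the day, below the thresholds in both genotypes. That of AT1G21830 changed by -0.90 and -1.19 to 3 h and by -1.60 and -2.36 over the day. From 3 h to 24 h it changed by -0.70 in the wild type, short of the threshold, and by -1.17 in lcbk1-2. Both probe sets of both genes therefore gave lower signals at each later time.

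The difference between lcbk1-2 and the wild type asks whether loss of the kinase shifted the level of these genes, and the choice of genes did not use it. In limma, with genotype and time as additive terms on the 6 arrays, 0 of the 74 genes passed an adjusted p of 0.05, beside 0.0128% of all tested features (2 of 15653). At an unadjusted p under 0.05 there were 4 of the 74 (5.41%), beside 8.27% of all tested features: AT5G44020, AT2G31730, AT2G42900 and AT1G22890. The estimate was above 0 in 33 genes and below 0 in 41, with a median of -0.02 on the log2 scale and a range from -0.43 to 0.41. The SE had a median of 0.13 and rests on 2 residual degrees of freedom, so it holds array error together with any difference in the response to cold, and a p that misses the threshold does not show equal levels.

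The largest estimate was that of AT5G44020, the brightest member, lower in lcbk1-2 at all 3 times (-0.43, SE 0.11, limma adjusted p = 0.447). AT2G31730 was likewise lower at all 3 times, with signals of 304, 189 and 72.6 in lcbk1-2 against 377, 250.1 and 92.2 (-0.35, SE 0.11, limma adjusted p = 0.516). AT1G52720 read 706, 212 and 96.5 in lcbk1-2 and 724, 362 and 117 in the wild type (-0.36, SE 0.16, limma adjusted p = 0.623), with the gap mostly at 3 h. The largest estimates in the other direction, those of AT5G59080 (0.41, SE 0.25) and AT5G62280 (0.36, SE 0.29), rested on the 24 h arrays and had the limma adjusted p-values 0.686 and 0.757. By contrast AT2G42900 (0.35, SE 0.11) and AT1G22890 (0.31, SE 0.11) were higher in lcbk1-2 at all 3 times (limma adjusted p = 0.516 and 0.575). The wild-type 24 h value of AT2G42900 was under the floor.

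**Figure D5:**
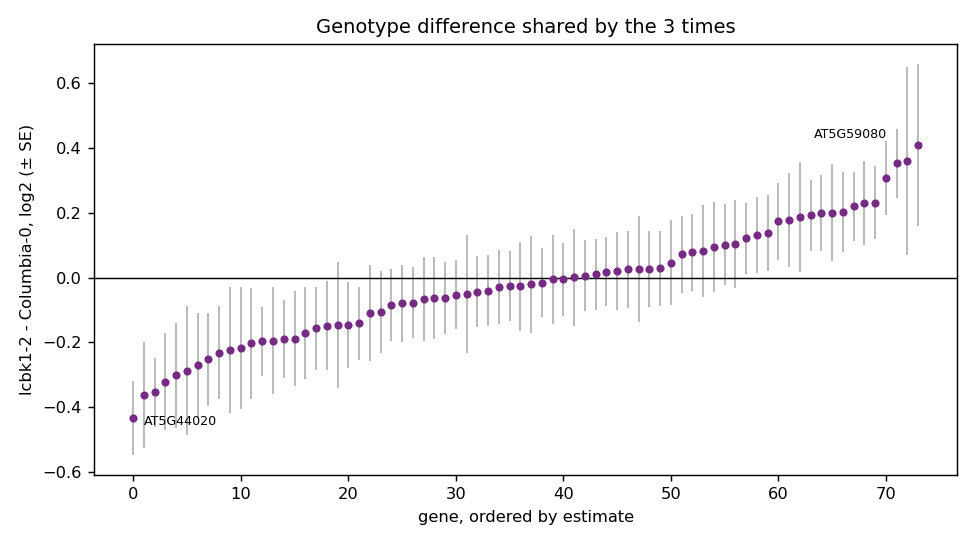
Difference lcbk1-2 minus Columbia-0 shared by the 3 times, in log2 units with its SE from limma, for the 74 genes in order of the estimate. The estimates run from -0.43 (AT5G44020) to 0.41 (AT5G59080), and none passed the adjusted threshold.

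At single times 1 array stood against 1, so there is no test. At 0 h and at 3 h 0 of the 74 genes were at least 2-fold apart, beside 0.319% of tested features higher and 0.358% lower in lcbk1-2 at 0 h, and 0.434% and 0.287% at 3 h. At 24 h 2 genes were at least 2-fold higher in lcbk1-2, beside 0.473% of tested features, and 0 were lower, beside 0.339%. This count is set by the floor: with no floor or one at the 20th percentile 7 genes were 2-fold apart, and with one at the 50th 0 were. AT4G01330, for one, read 90.0 in the wild type and 28.1 in lcbk1-2 at 24 h. The 2 genes counted with the floor at 66 were AT5G62280, at 251 against 102, and AT5G59080, where the wild-type value was under the floor. For AT5G59080 the arrays read 695, 409 and 59.3 in the wild type and 745, 388 and 152 in lcbk1-2, so the genotypes were close until 3 h.

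Next, the cold changes of the genotypes were compared gene by gene. The choice of genes asked for a fall in both genotypes and so used these changes, which are a description. Over the day the cold change differed by a median of 0.26 in size on the log2 scale, and by less than 0.5 in 56 of the 74 genes. The signed difference, lcbk1-2 minus wild type, had quartiles of -0.34 and 0.18 in the 74 genes. Over all tested features its quartiles were -0.25 and 0.24, so the genotypes were not closer in the 74 genes than in general. It was at least 2-fold apart in 2 genes, beside 2.74% of tested features: AT5G62280, at -4.68 (wild type) and -3.42 (lcbk1-2), and AT5G59080, at -3.40 and -2.29, the former a bound. With no floor or one at the 20th percentile 8 genes were that far apart, and with one at the 50th 0 were. Next were AT3G23080 and AT4G14930, which went deeper in lcbk1-2, by -0.92 and -0.91, and AT4G39675, which went less deep, by at least 0.86 since its wild-type 24 h value is under the floor, with signals of 581, 271 and 57.2 (wild type) and 396, 177 and 81.6 (lcbk1-2).

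From 0 h to 3 h the change was more negative in lcbk1-2 for 53 of the 74 genes (71.6%), beside 47.7% of all tested features, with a median difference of -0.10 against 0.01. At 0 h 47 genes (63.5%) were higher in lcbk1-2, beside 48.4% of all tested features, and at 3 h 47 were lower, beside 45.4%. Features at the floor in both genotypes count as neither higher nor lower in these shares, and none of the 74 genes was at the floor at 0 h or 3 h. The difference was at most 0.90 in size, for AT4G12690, and under 0.5 in 65 genes. Its quartiles were -0.34 and 0.02 in the 74 genes, and -0.20 and 0.25 over all tested features. By this change 0 genes were 2-fold apart, beside 2.08% of tested features. With arrays scaled to a common median the count was 62, but the share over all tested features rose too, to 56.2%. With quantile normalization the count was 56, beside 49.8%. Each value rests on 1 array, the choice of genes used these same changes, and the wild-type 0 h array is the one with the bright hybridization controls, whose part in the result was not tested.

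Genes of related pathways were read from lists, with limma's shared cold change as the test (28.6% of all tested features fell from 0 h to 24 h and 19.3% rose). The lists by locus hold 126 loci, of which 35 were tested, so the counts cover only a part of these lists. Of 13 other basic leucine zipper genes, 5 fell and 5 rose at 24 h, and BZIP61 was the sole member of the group. BZIP34, a close relative, was dim: it read 179, 104 and 15.5 (wild type) and 225, 154 and 3.02 (lcbk1-2), and fell to under the floor in both genotypes (limma adjusted p = 7.4e-04). Other falls were those of bZIP52 (-2.04, a bound since its lcbk1-2 24 h value was under the floor) and AT4G38900 (-1.17). By contrast bZIP44 rose by 1.70 and BZIP60, a factor of the unfolded protein response, by 1.64. The rise of bZIP58, under the floor at 0 h in both genotypes, was at least 1.11. With quantile normalization, a common median, no floor or a floor at the 20th percentile 1 fewer of the bZIP genes fell. The median of the 14 bZIP genes was -0.24, beside -0.11 over all tested features.

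Other wall enzymes did not share a direction. Of 8 xyloglucan endotransglucosylase/hydrolase genes, 3 fell and 2 rose at 24 h, with a median of -0.08 (0.03 with a common median, and 4 fell with no floor). XTH16 fell by 1.82 on the log2 scale, XTH33 by 1.70 and EXGT-A3 by 0.91, while XTH20 rose by 3.77 and XTH18 by 1.25. Among 3 pectin methylesterase genes outside the group, PME61 (-1.68) and PMEPCRF (-1.17) fell and ATPMEPCRB (1.14) rose.

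Of the low-energy genes that the kinase SnRK1 controls, 5 were tested, and the 2 that fell, AKINBETA1 (-4.33) and ATL8 (-2.36), are among those left out of the group by name. AT5G11460 (0.08), BZIP53 (-0.04) and AT1G78020 (0.42) did not pass, and with a common median 1 gene of the list rose. Of 4 genes of branched-chain amino acid breakdown 3 fell, MCCA, MCCB and IVD, and the lyase gene AT2G26800 (-0.27) did not pass. In the sphingolipid list, the pathway of the mutated kinase, 4 of 7 tested genes fell and 0 rose (1 rose with a common median, and 3 fell with a floor at the 50th percentile). They were the serine palmitoyltransferase subunit LCB2 (-1.83), both ketoreductases TSC10A (-1.63) and TSC10B (-1.23) and the glucosylceramide synthase AT2G19880 (-1.29). None of them met both steps: TSC10A changed by -0.88 and -0.74, and TSC10B by -0.14 and -1.09. The lcbk1-2 24 h value of TSC10B was under the floor, so its -1.23 and -1.09 are bounds.

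Of the Kelch F-box list 1 gene was tested, the member AT1G23390 described above. All 5 tested genes of auxin and growth fell at 24 h, with a median of -3.10, and 2 of them, WES1 and EXPA8, met both steps and are outside the group only because they were left out by name. All 5 cold-regulated genes rose, with a median of at least 5.52, since 1 of them, COR27, was under the floor at 0 h in lcbk1-2. The evening clock gene GI rose by 4.08. Of 6 other basic helix-loop-helix genes 4 fell and 1 rose, of 2 MYB genes both fell, and of 14 cytochrome P450 genes 6 fell and 3 rose. A further mTERF gene (0.34) did not pass.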

How the data were processed

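The authors deposited 1 MAS5 signal intensity per probe set and array, per the submitters' processing notes; its version and settings: not given in the sources used here. The intensity is linear, with a common trimmed mean. Of 22810 features, 64 controls were set aside; 13513 probe sets were annotated to 1 gene (13436 matched in the RefSeq table of TAIR10.1), 503 to several and 8730 to none. The brightest probe set of a gene was kept, setting aside 158. Signals under 66 were set to 66 and log2 taken; features above 66 on at least 2 arrays (15653) were tested with limma 3.58.1 in R 4.3.3, genotype and time additive, moderated by empirical Bayes, two-sided, Benjamini-Hochberg over all of them, threshold 0.05, with 2 residual degrees of freedom (prior 4.19). Limma was tested on simulated data. Members, lists and tests were chosen with earlier results of these data known. The rule for named genes took the 15 deepest falls, the 5 brightest members, the 5 largest genotype estimates, the 5 largest differences in cold change, and members of 14 lists by locus or 17 family patterns. Of those lists 4 and of the patterns 6 had no tested gene. Name patterns that also caught other products (kinases, transporters, zinc fingers, thioredoxins) were not used. Alternatives were other floors, no filter, quantile or median scaling, the mean over probe sets, other thresholds and leaving out arrays. Promoter and protein sequences were not analysed here.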

Additional observations from a re-analysis of the deposited data

How the results depend on the processing

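No paired analysis was possible because no replicate number links the arrays; the additive limma fit itself sets the genotypes against each other within each time. The 74 genes became 89 when the floor was the 20th percentile of signals, 49 when it was the 50th and 104 without one, 61 under quantile normalization, 52 with a common median and 73 with the mean over probe sets; 74, 49, 74, 57, 48 and 73 of the original genes were among them. With 1 at both steps there were 30, with 0.58 at both 133. A common median moved the median of all tested features by 0.18 from 3 h to 24 h. Under the 50th percentile floor the members' median change was -1.34 from 3 h to 24 h and -2.34 over the day, as its construction implies, and 0 were 2-fold apart between genotypes at 24 h; with the 20th percentile or none 7 were. All 74 were lower at both steps in both genotypes except with the 50th percentile, where 69 were.

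In limma, 0 members passed for genotype under every alternative, with 1 to 9 at an unadjusted p under 0.05. Over all features the 2 calls became 0 with either other floor, no floor, no filter, 0 h and 3 h arrays only, and with any array left out (0 to 0), beside 852 to 1482 at an unadjusted p under 0.05. The cold calls over all features were 2696 at 3 h, 5338 from 3 h to 24 h and 7496 at 24 h. At 3 h they were 1018 with the 20th percentile, 1555 with no floor and 120 with no filter. With no filter the later comparisons gave 1583 and 3585. With 1 array left out, and 1 residual degree of freedom, they ran from 0 to 534, from 1085 to 3950 and from 3861 to 6566; the cause was not tested. Signal over background limits the genes near the floor at 24 h.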
